A study of Rattus norvegicus with 4 samples.

Results

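The 9 genes described here encode components and regulators of complement: C1qa, C1qb, C1s, C2, C3, Cfb, Cfd, Serping1 and Cd55. They were taken by symbol from a list, and each had a single row among the 18350 rows that held a value on all 4 arrays, of which 7068 could be named. The 4 arrays measured colon RNA of male rats, 2 arrays from the control group and 2 from the MSCT group (mesenchymal stem cell transplantation). The sample titles do not say whether each array is a separate rat. In the MSCT group, Sprague Dawley rats received trinitrobenzene sulfonic acid (TNBS) into the colon, which damages the mucosa and serves as a model of inflammatory bowel disease (IBD), and on the following day received cultured MSCs, made to express green fluorescent protein by a virus, through the tail vein. The control rats had no transplantation, and the study's control group was given saline. The sample descriptions call them normal rats, the study compares MSCT with untreated IBD rats, and the series text uses both names, so a difference given here is that between the labelled groups, and the disease and the transplantation cannot be told apart if the controls were healthy. More than 1 day after transplantation is given for the arrays in the study's text and none in the labels. The animals' age is not given in the sources used here.

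Complement is a set of plasma and membrane proteins that tag microbes and damaged cells and recruit leukocytes. In the classical pathway, C1q binds antibody or cell debris and activates the proteases C1r and C1s, which cleave C4 and C2 into an enzyme that splits C3. In the alternative pathway, C3 joins with factor B (Cfb), which is cut by factor D (Cfd), and so amplifies the reaction. C1 inhibitor (Serping1) blocks C1r and C1s, and decay-accelerating factor (Cd55) takes apart the enzymes that split C3 on the surface of the body's own cells. The liver makes most complement in plasma, whereas C1q comes chiefly from macrophages and dendritic cells, factor D from adipocytes, and in the gut C3 and factor B are also made by epithelial and stromal cells.

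Genes of the classical pathway and its inhibitor were higher in the MSCT group. Those of the alternative pathway were not separated beyond their spread, and whether the pathways differed from each other was not tested. C1qb was 3.04-fold higher, Serping1 2.60-fold, C1s 2.58-fold and C1qa 2.43-fold. Cd55 (1.80-fold) and C2 (1.76-fold) were higher by less than 2-fold, and Cfd was the single member with a lower mean. The study's screen asks for more than 2-fold and a p under 0.05 before adjustment. Applied here to limma, which fits each row and borrows variance across rows, it passed 4 of the 9 genes, all higher, where 2.12% of all rows passed in that direction and 4.63% in either. At an unadjusted p under 0.05 alone, 6 of 9 were higher, against 4.80% of all rows, and 0 of 9 lower, against 7.17%. The MSCT arrays lay above both control arrays in 7 of 9 genes (21.3% of all rows) and below both in 1 (24.5% of all rows). The median difference of the 9 genes was 0.85 on the log2 scale, and that of all rows -0.02. The members were chosen with earlier results of these data known, so these shares describe the set and do not test it.

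No member passed an adjusted p of 0.05 by limma (Benjamini-Hochberg over 18350 rows), nor did any row of the table, although 2196 rows had an unadjusted p under 0.05. The methods' t-test, a plain test with equal variances, likewise passed 0 rows after adjustment and 1772 before. When the variance was allowed to depend on intensity (trend and robust options of limma), 387 rows passed, with C1qa (adjusted p = 0.0137), C1qb (0.0115), C1s (0.00877), Serping1 (0.00573) and Cd55 (0.0178) among them. Without the dimmest 50% of rows, all 5 of these genes passed too (adjusted p from 0.0141 to 0.0416 by limma, 247 of 9175 rows past it). The other 4 members were not in that fit. Without the dimmest 25% of rows, 0 of the 8 members that were left passed (smallest limma adjusted p = 0.0807). With 2 arrays per group, the smallest two-sided p that an exact permutation test allows is 0.333. The sample titles number the replicates and do not say how the rats relate to each other. The p of the plain t-test rests on the spread between 2 arrays per group, and that of limma also on the variance borrowed across rows. The array medians lay between 848 and 893 in linear intensity, and across rows the arrays correlated with Pearson's r of 0.953 between the controls and 0.964 between the MSCT arrays.

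**Figure D1:**
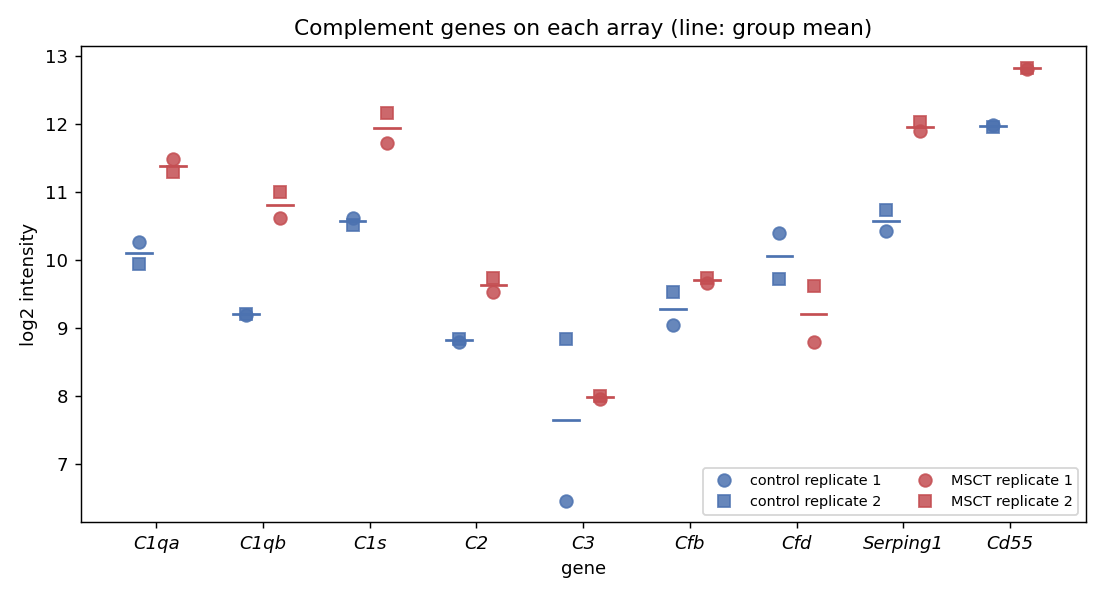
Log2 intensity of the 9 complement genes (vertical axis) on each array, with control arrays in blue, MSCT arrays in red, circles for replicate 1, squares for replicate 2 and a line at each group mean. The MSCT arrays lie above both control arrays for C1qa, C1qb, C1s, C2, Cfb, Serping1 and Cd55, below both for Cfd, and between them for C3, whose control arrays are 2.37 apart; levels of different genes rest on different probes and are not to be compared.

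C1qa and C1qb encode the A and B chains of C1q, the part of C1 that recognises its targets. In the order of replicates 1 and 2, the log2 intensity of C1qa (NM_001008515) was 10.26 and 9.95 in control colon and 11.48 and 11.29 after MSCT. C1qb (NM_019262) stood at 9.20 and 9.21 in the controls, then at 10.62 and 11.00 after MSCT. For both chains every MSCT array was more than 2-fold above every control array, with 1.03 between the nearest arrays for C1qa and 1.41 for C1qb. The difference was 1.28 for C1qa (standard error 0.22, 95% confidence interval 0.70 to 1.86; limma adjusted p = 0.260) and 1.61 for C1qb (standard error 0.22, interval 1.02 to 2.19; adjusted p = 0.257). Of all rows, 0.725% had a larger rise than C1qb. The interval of C1qb lay wholly above 2-fold, that of C1qa did not.

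In the rat gene order, C1qb, C1qc and C1qa follow each other on chromosome 5. C1qc, the gene of the C chain, was not in the list of members and moved the same way, from 11.66 and 11.78 to 12.46 and 12.80, a difference of 0.91 (standard error 0.22; limma adjusted p = 0.312). Thus all 3 chains had MSCT arrays above both control arrays. The stretches of 250 bases before the annotated starts of C1qa and C1qb are shown because these neighbouring genes moved together, and that of Cfd because it alone among the members was lower. They are from RefSeq (rat assembly GRCr8, minus strand, 5′ to 3′), at chr5:154419934-154420183 for C1qa, chr5:154407828-154408077 for C1qb and chr7:10465497-10465746 for Cfd, and capitals mark matches to 4 strings of letters searched on both strands.

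C1qa: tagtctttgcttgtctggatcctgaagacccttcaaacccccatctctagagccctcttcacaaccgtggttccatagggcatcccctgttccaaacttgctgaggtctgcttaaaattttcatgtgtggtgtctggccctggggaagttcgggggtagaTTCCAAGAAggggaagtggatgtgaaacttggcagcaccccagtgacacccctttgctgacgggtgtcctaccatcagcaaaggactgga

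C1qb: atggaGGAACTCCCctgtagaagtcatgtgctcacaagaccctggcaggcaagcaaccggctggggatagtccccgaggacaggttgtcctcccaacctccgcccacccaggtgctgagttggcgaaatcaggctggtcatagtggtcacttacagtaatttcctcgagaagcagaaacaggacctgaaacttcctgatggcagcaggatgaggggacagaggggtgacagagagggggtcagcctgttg

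Cfd: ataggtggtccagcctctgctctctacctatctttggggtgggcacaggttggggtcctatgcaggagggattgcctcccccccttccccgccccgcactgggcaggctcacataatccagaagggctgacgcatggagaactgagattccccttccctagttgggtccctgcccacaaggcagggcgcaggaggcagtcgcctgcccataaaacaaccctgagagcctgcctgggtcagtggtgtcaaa

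The strings were GAAANNGAA, as in interferon response elements, TTCNNNGAA, as in STAT sites, GGGNNTTCC, as in NF-kB sites, and TATAAA, where N stands for any base and the first pair can overlap. C1qa held TTCNNNGAA once, starting 90 bases before the start, as did 7.67% of all 33469 promoters of the table. C1qb held GGGNNTTCC once, on the other strand, 245 bases before the start, and Cd55 held it 75 bases before its start, a string found in 5.09% of promoters. GAAANNGAA (8.12% of promoters) and TATAAA (12.9%) were in none of the 5 members' windows in the table, those of C1qa, C1qb, C3, Cfd and Cd55. These are matches of letters only.

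C1s encodes the protease of C1 that cleaves C4 and C2, and Serping1 its inhibitor. C1s (NM_138900) measured 10.62 and 10.52 in control colon, compared with 11.71 and 12.16 after MSCT. For Serping1 (NM_199093) the values were 10.42 and 10.74 against 11.89 and 12.02. In neither gene did the groups overlap, and the nearest arrays lay 1.09 and 1.16 apart. The difference was 1.36 for C1s (standard error 0.24, interval 0.73 to 2.00) and 1.38 for Serping1 (standard error 0.21, interval 0.81 to 1.95), with a limma adjusted p of 0.260 for each. Protease and inhibitor thus differed between the groups by nearly the same amount. C1r, the other protease of C1 and the neighbour of C1s in the gene order, had no row by name.

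C2 encodes the component that C1s cleaves, and its gene lies next to Cfb, the gene of its counterpart in the alternative pathway, on chromosome 20. C2 (NM_172222) stood at 8.80 and 8.84 in the controls and reached 9.54 and 9.73 after MSCT, which is a difference of 0.81 (standard error 0.19, interval 0.30 to 1.33; limma adjusted p = 0.312). The groups did not overlap, and the control arrays were closer to each other than in 92.0% of all rows. Without MSCT replicate 2 the difference was 0.72 with an unadjusted limma p of 0.0764, so C2 passed an unadjusted p of 0.05 with 3 of the 4 arrays left out in turn. Cfb (NM_212466) lay at 9.04 and 9.52 in the controls, and at 9.66 and 9.74 after MSCT. Its groups were 0.14 apart at the nearest arrays, less than the 0.48 between the control arrays. The difference of 0.42 (standard error 0.24) had an interval from -0.23 to 1.07 and a limma adjusted p of 0.552, which leaves room for more than 2-fold. Whether C2 and Cfb differed from each other in their change was not tested.

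C3 and Cfd complete the alternative pathway in this set, and the data fix the direction of neither. C3 (NM_016994) encodes the central component, on which all pathways meet. In linear intensity the controls gave 88.6 and 459, with 250.1 and 257 after MSCT, or 6.47 and 8.84 against 7.97 and 8.01 on the log2 scale. The MSCT arrays agreed within 0.04 and lay between control arrays that were 2.37 apart, a wider gap than in all but 0.452% of rows. C3 was among the dimmest 25% of rows, of which 0.915% had a wider gap. The difference of 0.33 (standard error 0.81) had an interval from -1.84 to 2.51 and a limma adjusted p of 0.891. It was -0.85 without control replicate 1 and 1.52 without control replicate 2, and each of these had an unadjusted limma p under 0.05, so that the direction called depended on which control array was used. As the log2 ratio of linear means it was -0.11.

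Cfd (NM_001077642) encodes factor D, also called adipsin, the protease that cleaves factor B. It stood at 10.40 and 9.72 in the controls compared with 8.80 and 9.62 after MSCT. The groups were 0.10 apart at the nearest arrays, whereas the control replicates differed by 0.68 and the MSCT replicates by 0.82. The mean was 0.85 lower in the MSCT group (MSCT minus control -0.85, standard error 0.40, interval -1.92 to 0.21; limma adjusted p = 0.489), or 1.81-fold. With each array left out the difference lay between -1.26 and -0.44 and stayed negative. Without MSCT replicate 2 it had an unadjusted limma p of 0.0338, as with an intensity-dependent variance (0.0352).

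Cd55 (NM_022269) encodes decay-accelerating factor, a membrane regulator found on epithelium and leukocytes. Control colon gave 11.98 and 11.95, and colon after MSCT gave 12.80 and 12.82. These were the tightest groups of the 9 genes when both gaps are added, with replicates 0.03 and 0.02 apart and 0.82 between the nearest arrays of the groups. The difference of 0.85 (standard error 0.18, interval 0.36 to 1.33; limma adjusted p = 0.291) stayed under 2-fold and between 0.83 and 0.86 whichever array was left out, with an unadjusted p of at most 0.0496. Measured within each array against the mean of 10 markers of colon epithelium, Cd55 was 0.62 and 0.72 above the control mean after MSCT, with the control arrays 0.03 on either side of it. Of the general leukocyte markers, Laptm5, Cd53 and Coro1a differed by 1.33, 1.07 and 0.99, and Cd52 by -0.76. The part of epithelium and of leukocytes in the Cd55 difference was not tested.

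**Figure D2:**
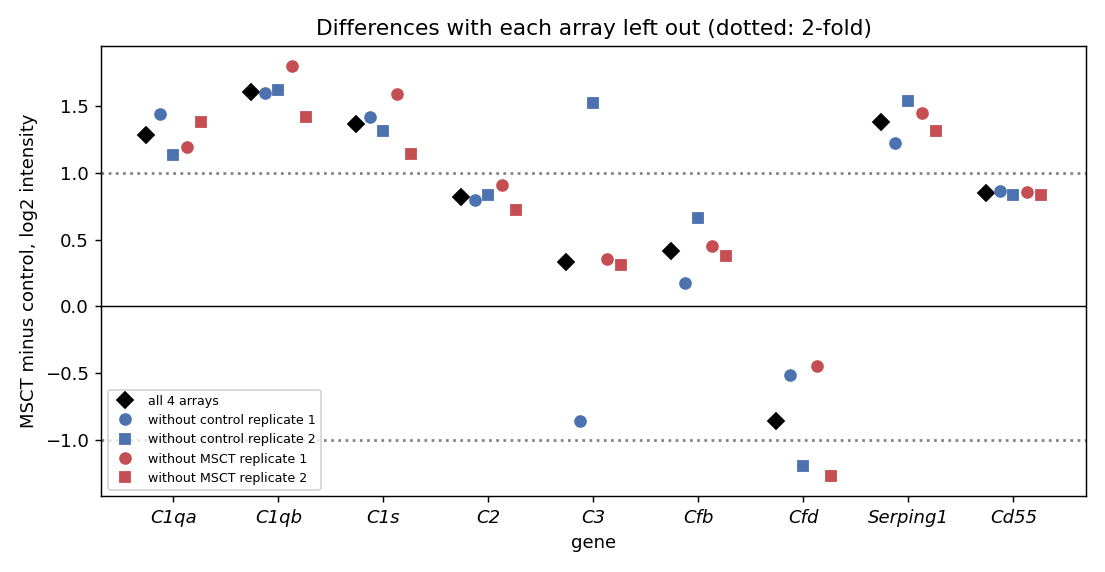
MSCT minus control on the log2 scale (vertical axis) for each of the 9 genes, with all 4 arrays (black diamonds) and with each array left out (blue, control arrays; red, MSCT arrays; circles, replicate 1; squares, replicate 2), and dotted lines at 2-fold. C1qa, C1qb, C1s and Serping1 stay above 2-fold throughout, Cd55 stays within 0.83 to 0.86, and C3 runs from -0.85 to 1.52.

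Across the wider pathway, a list of 50 complement genes by role held 31 measured genes, the 9 members included. Of the 22 others, 4 were higher at an unadjusted p under 0.05 (4.80% of all rows) and 0 lower (7.17% of all rows), and their median difference was 0.48. These shares, and the 21.3% of all rows whose MSCT arrays lay above both control arrays, are also the background of the counts by role that follow. The lists, like the members, were chosen with earlier results known, so the counts are description. In the classical pathway 7 of 8 genes were measured, all with MSCT arrays above both control arrays, and 6 had an unadjusted p under 0.05. Apart from members and C1qc, this held for C4a (12.04 and 11.94 against 12.50 and 12.58, difference 0.55, standard error 0.18). For C4a this was lost whichever array was omitted, and also with the replicate block. C4b, its close copy, differed by 0.54 (standard error 0.24), and how far the probes of the copies share signal is not shown by the deposited values. C4 is the component that C1s cleaves before C2.

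In the lectin pathway, which starts from sugars on microbes, 1 of 5 measured genes had an unadjusted p under 0.05. This was Fcna, which encodes a ficolin, at 9.46 and 9.48 against 10.48 and 10.32 (difference 0.93, standard error 0.19; limma adjusted p = 0.289). Of the others, Fcnb differed by 1.14, the protease Masp1 by 0.86, Mbl2 by 0.64 and the protease Masp2 by -0.02, each with an interval across 0, and the median of the 5 was 0.86. In the terminal pathway, whose proteins form a pore in the target, C9 was the single measured gene of 7. It was dim, at 6.38 and 7.09 against 8.06 and 7.69, and higher by 1.13 (standard error 0.32; limma adjusted p = 0.339), which passed the screen. C9 had no unadjusted p under 0.05 with the methods' t-test, with an intensity-dependent variance, without control replicate 1 or without MSCT replicate 1.

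Serping1 was the single gene of 7 measured soluble regulators at an unadjusted p under 0.05, although all 7 had a higher mean. Of the 4 membrane regulators, each taken by its brightest row, Cd55 alone had an unadjusted p under 0.05. Cd46 and Cd59b, the latter a protector from the terminal pore, had differences of -0.30 and -0.28 with intervals across 0, and Cr1l differed by 0.39 in its brighter row and by 0.61 in its other row (unadjusted limma p of 0.111 and 0.0297). By their brightest rows, none of the 5 measured receptors (Cr1l counted here too) had an unadjusted p under 0.05, with differences from -0.07 to 0.41. Of the remaining listed genes, 6 (Mbl1, C6, C4bpa, C3ar1, Itgam and Vsig4) were blank on all arrays and 13 had no row by name.

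**Figure D3:**
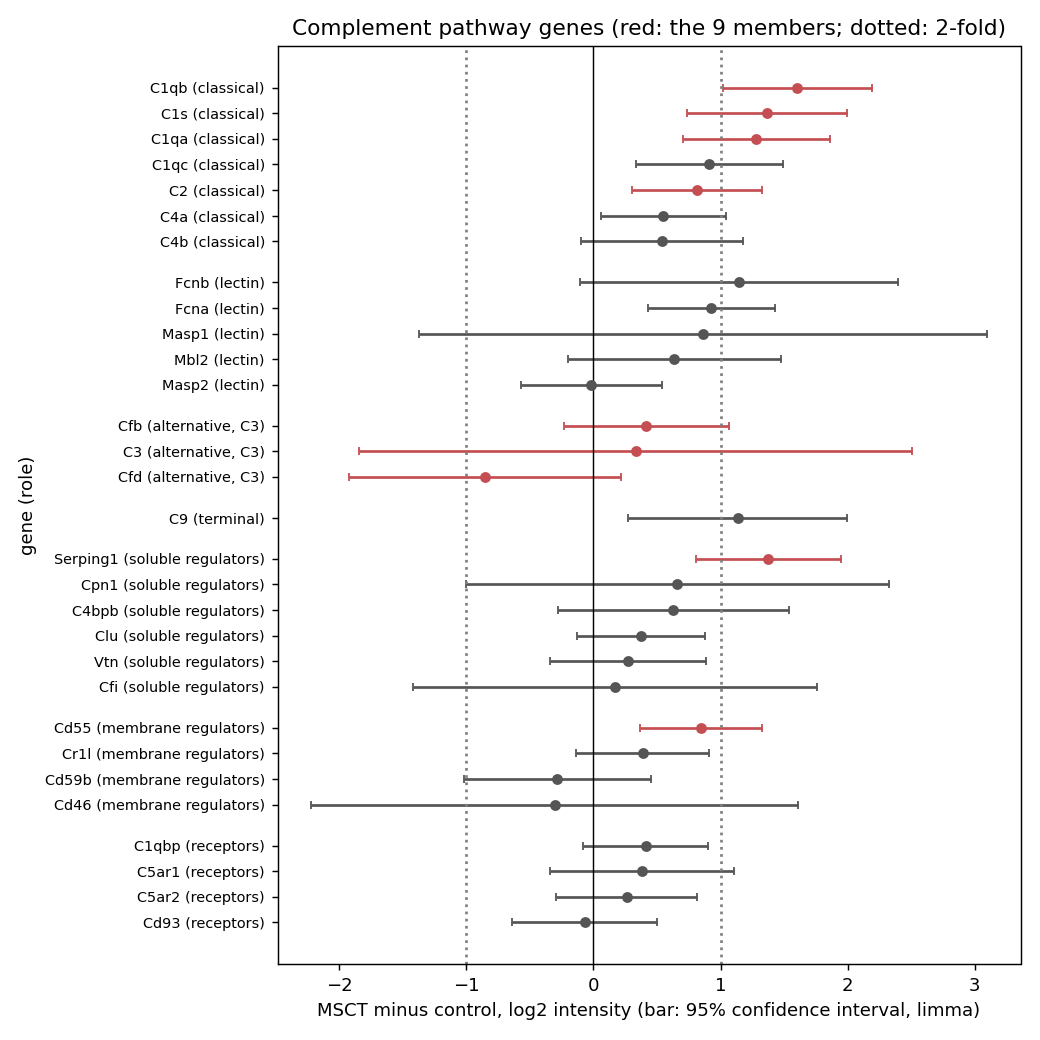
MSCT minus control on the log2 scale (horizontal axis) with 95% confidence intervals from limma for the measured complement genes that are reported here, grouped by role from top to bottom, with the 9 members in red and dotted lines at 2-fold. All 7 measured genes of the classical pathway lie right of 0, and the interval of C1qb alone lies wholly beyond 2-fold.

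Markers of the cells that make these proteins were measured on the same arrays. In bulk tissue, fewer cells of a type and less RNA per cell cannot be told apart. The tissue carried its epithelial markers, with 9 of 10 measured markers of colon epithelium among the brightest 25% of rows, and their mean log2 level was 13.77 and 13.79 in the controls, compared with 14.00 and 13.92 after MSCT. Epcam differed by 0.07 and Cdx2 by 0.48. The macrophage markers moved with the C1q genes. Without C1qc, 8 of 11 were measured, 7 of the 8 had MSCT arrays above both control arrays (21.3% of all rows), and 6 were higher at an unadjusted p under 0.05 (4.80% of all rows). Their mean log2 level was 9.30 in each control, and 10.09 and 10.41 after MSCT. Tyrobp differed by 1.58, Aif1 by 1.39, Cd68 by 1.29 and Csf1r, the receptor on which macrophages depend, by 1.00, whereas Cd14 differed by -0.04. Measured within each array against the mean of these 8 markers, C1qa and C1qb together were 0.61 and 0.38 above the control mean on the MSCT arrays, with the control arrays 0.07 on either side of it. Against Cd68 and Csf1r alone the excess was smaller, at 0.34 and 0.25, with the control arrays 0.09 on either side. The excess depended on the markers taken, as the differences of Tyrobp and Aif1 lay between those of C1qa (1.28) and C1qb (1.61). The part of macrophages in the C1q difference was not tested.

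General leukocyte markers went partly the same way. Laptm5, Cd53 and Coro1a were higher by 1.33, 1.07 and 0.99, Cd52 had a difference of -0.76, and Ptprc had no row by name. For C1s and Serping1, which fibroblasts also make, 6 of 8 fibroblast markers were measured. Their mean was 13.11 and 12.58 in the controls, with 13.08 and 13.23 after MSCT, so that these groups overlapped. Col3a1, Vim and Col1a2 differed by 0.78, 0.68 and 0.62, and the others by -0.22 to 0.03. Against this mean within each array, C1s and Serping1 together were 0.99 and 1.13 above the control mean on the MSCT arrays and 0.32 from it on each control array. Against the mean of the 8 macrophage markers the excess was smaller, at 0.44 and 0.40, with the control arrays 0.05 on either side. The part of fibroblasts and of macrophages was not tested.

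For Cfd, of 9 adipocyte markers 5 were measured, and the defining genes Adipoq and Lep were blank on all 4 arrays, while Plin1 had no row by name. The mean of the 5 was 10.25 and 9.60 in the controls, with 9.92 and 9.86 after MSCT, so that the groups overlapped. Cfd taken relative to this mean within each array changed from its control mean by -1.26 and -0.38 on the log2 scale after MSCT, with the control arrays 0.02 on either side. The 5 markers did not move together, so the size of this change depends on which of them are averaged. The part of adipocytes was not tested. Lpl, with control arrays at 9.98 and 8.70, differed by -1.10 (interval -2.37 to 0.18), Pparg by 0.58 and Cidec by 0.41. Of 5 hepatocyte markers, 0 had an unadjusted p under 0.05 by limma, and they went both ways, with Ttr at 0.89, Apoa1 at 0.50, Fgb at -0.21 and Alb at -0.20. Apoa1 alone among them had MSCT arrays above both control arrays (21.3% of all rows). A list for interferon gamma, a cytokine known to raise C2, Cfb, C1s and Serping1, was also measured. It held genes that the cytokine induces and the gene of its receptor. Of the 10 measured genes of this list, 0 had an unadjusted p under 0.05 by limma, against 4.80% of all rows higher and 7.17% lower. Their median difference was 0.03, and the part of interferon gamma was not tested. Cxcl10 differed by 0.63, Irf7 by -0.63 and Psmb9 by 0.23.

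**Figure D4:**
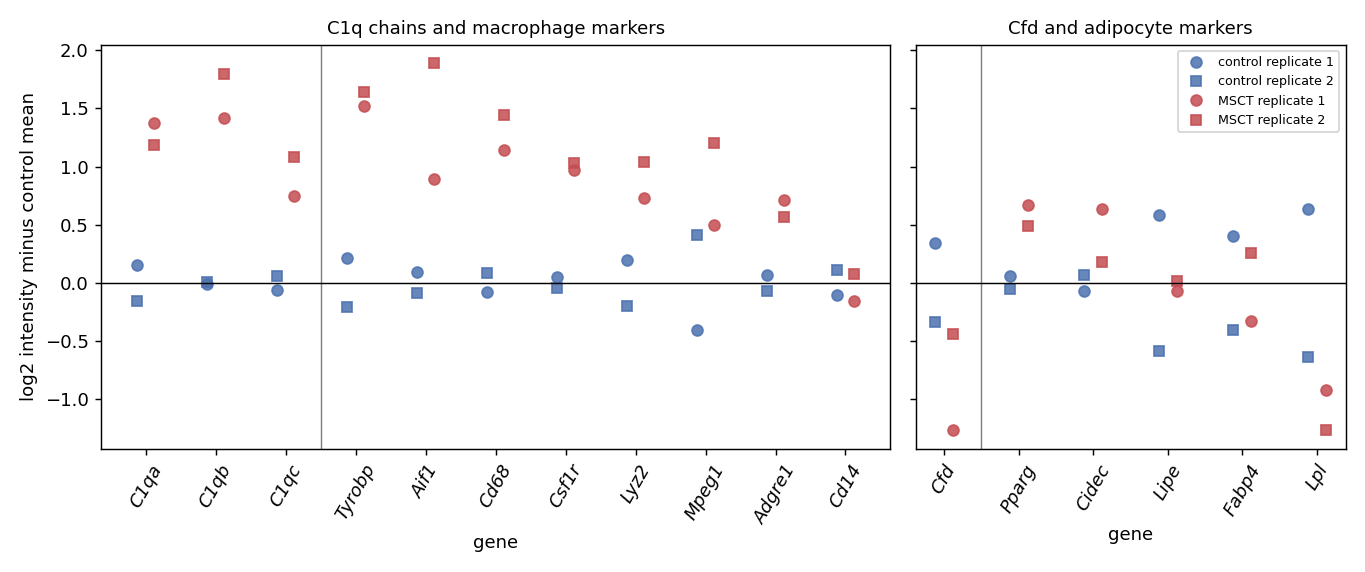
Log2 intensity minus the control mean of the same gene (vertical axis) on each array, for the 3 C1q chains beside 8 macrophage markers (left) and Cfd beside 5 adipocyte markers (right), with control arrays in blue, MSCT arrays in red, circles for replicate 1 and squares for replicate 2. The MSCT arrays lie above both control arrays for every C1q chain and for the macrophage markers other than Cd14, and the adipocyte markers do not move together.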

How the data were processed

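Colon RNA of control and MSCT rats was measured on 2 NimbleGen arrays per group in 1 color (Cy3). After GenePix scanning and NimbleScan extraction, the authors deposited a linear intensity for each RefSeq transcript. The submitters' processing notes name RMA without a role, and the rule that left 8070 of 26420 rows blank is not given in the sources used here. The intensities were taken as log2 values with no pseudocount, filter or scaling, and the groups were compared across all 18350 measured rows by moderated two-sided tests of limma (version 3.58.1, R 4.3.3; Benjamini-Hochberg over all rows). This step was tested on simulated data in which the variance did not depend on intensity. Names and gene order came from RefSeq's gene table (GRCr8), with the brightest row kept per gene. Python 3.11.15, pandas 2.3.3 and matplotlib 3.10.9 were used for lists and figures.

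The members and lists were chosen with earlier results of these data known. Named in the text are the members, other complement genes past an unadjusted p of 0.05 or next to a member, up to 3 genes per marker list with the largest difference, and set defining genes. C4b, Fcnb, Mbl2, Masp1, Masp2, Cfi, Cpn1, Cd46, Cd59b, Cr1l, Cd14, Cd52 and blank genes were named after their values were seen. As alternatives, arrays were quantile normalized or set to equal medians, dim rows were removed, and the methods' t-test was run. Others were an intensity-dependent variance, the replicate number as a block, fold changes of linear means and leaving out each array. No member had a second row. Some listed genes count in the list totals but are not reported here by name.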

Additional observations from a re-analysis of the deposited data

How the results depend on the processing

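The 4 members past the screen (C1qa, C1qb, C1s and Serping1) passed it under every alternative that gives a p, also with the replicate block (4 members, all higher). Fold changes of linear means have no p, so the screen was not run on them. Without control replicate 2, 5 were past it and higher, C3 (1.52) among them, and without MSCT replicate 2 Cfd passed as lower. C3 reversed without control replicate 1 and then passed an unadjusted p of 0.05 as lower (-0.85 to 1.52 over the arrays left out) and as a ratio of linear means (-0.11). The count of all rows past the screen went from 850 to 388 with the methods' t-test, to 251 without the dimmest 50% of rows and to between 934 and 1565 with an array left out (1565 without control replicate 2, 1503 without MSCT replicate 2), and was 971 with the replicate block. The count of other complement genes that were higher went from 4 to 7 without the dimmest 50% of rows, to 8 with an intensity-dependent variance and to between 3 and 7 with an array left out (7 without control replicate 2). The sample titles link the same-numbered arrays of the groups only by the number, and do not say whether they shared a batch. Across rows their gaps between replicates correlated with r = 0.23, and the block changed no call of a member. The number of arrays limits the precision, most of all for dim rows.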

Other observations

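Of the 31 measured complement genes, 4 had control arrays more than 2-fold apart (C3, Masp1, Cpn1 and Cfi), and in all 4 control replicate 1 was the lower array. That far apart were 8.73% of all rows and 21.7% of the dimmest 25%, which held 11 of the 31 genes. Masp1, a protease of the lectin pathway, lay at 5.90 and 8.18 in the controls, and at 7.46 and 8.34 after MSCT. Cpn1, which encodes a subunit of the carboxypeptidase that inactivates C3a and C5a, stood at 7.08 and 8.83 against 8.45 and 8.77. Cfi, the protease that cuts C3b, was at 7.50 and 8.53 against 7.51 and 8.85. On the MSCT arrays, too, replicate 1 was the lower array in all 4 genes, by 0.04 for C3, 0.88 for Masp1, 0.33 for Cpn1 and 1.34 for Cfi.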
